A study of Arabidopsis thaliana with 16 samples.

Results

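CHLP and CHLM encode enzymes of chlorophyll synthesis in Arabidopsis thaliana, and this account follows their transcripts in the pete1 mutant. A member is a probe whose annotation names a single gene, that gene being CHLP (AT1G74470) or CHLM (AT4G25080). Each gene had 1 such probe, so 2 of the 3439 probes on the array are described, among 692 probes that name 1 gene. The probe for CHLP is number 2360, listed in the annotation under its locus code, and the probe for CHLM is number 2091.

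Chlorophyll is built in the plastid from a magnesium porphyrin ring and a long isoprenoid tail. CHLM, the magnesium protoporphyrin IX methyltransferase, adds a methyl group to the ring early in the magnesium branch, using S-adenosylmethionine. CHLP, geranylgeranyl reductase, works at the other end: it reduces geranylgeranyl groups to the phytyl groups that form the tail of chlorophyll and that also enter tocopherol and phylloquinone. Plastocyanin, the protein affected in the mutant, carries electrons from the cytochrome b6f complex to photosystem I, whose chlorophyll-binding subunits use the pigment.

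Total RNA was measured on 16 arrays, 8 of pete1 and 8 of the wild type (WT). The pete1 plants lack 1 of the plastocyanin isoforms; the allele is not named. Both groups are in the Columbia 0 ecotype and grew on soil, and the labels give no age, organ or treatment. The sources are silent on whether each array had its own plants, so the p-values weigh differences against a between-array spread that may be technical.

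Deposited values were spot intensities from 0 to a ceiling of 100. Array medians ran from 0.0524 to 0.205 in pete1 and from 0.129 to 0.193 in WT, so intensities were quantile-normalized between arrays before log2 was taken. Arrays with consecutive replicate numbers deviated together from their group mean (median correlation across probes 0.439), and the changes of both genes are therefore given over 8 arrays and over 4 averages of consecutive arrays per group. No probe naming 1 gene names PETE1 or PETE2, which leaves the genotype labels without a check by the affected gene. Of 7 leaf markers 2 were measured on a probe of their own: LHCB1.5 lay at the 98.4th and PRK at the 93.7th percentile of an array on average. None of 6 root and 6 seed markers was measured on a probe of its own, so RNA of other organs could not be assessed.

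CHLP was among the brightest transcripts in both genotypes. Its deposited intensity was 1.39 at the lowest, 3.29 at the median and 4.17 at the highest over the pete1 arrays, against 1.25, 2.16 and 3.81 over the WT arrays. These ranges overlap almost throughout: 2 of 8 pete1 arrays lay above the highest WT array and 1 of 8 WT arrays below the lowest pete1 array. No value of CHLP was 0 or at the lowest measurable level on any array.

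After normalization the separation was clearer. In pete1 the CHLP signal (log2) was 1.31 and 1.09 on replicates 1 and 2, 1.86 and 1.84 on replicates 3 and 4, 1.80 and 1.82 on replicates 5 and 6, and 1.56 and 1.39 on replicates 7 and 8. In WT it was 1.08 and 0.89 on replicates 1 and 2, 1.44 and 1.24 on replicates 3 and 4, 1.54 and 1.40 on replicates 5 and 6, and 0.23 and 0.012 on replicates 7 and 8. The groups overlapped, with 5 of 8 pete1 arrays above the highest WT array and WT replicates 7 and 8 well below every other array.

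CHLP averaged 1.59 ± 0.29 in pete1 and 0.98 ± 0.57 in WT (normalized log2, SD, n = 8 arrays each). The change was 0.61 on the log2 scale (95% confidence interval 0.032 to 1.18), which is 1.52-fold (1.02 to 2.27). It did not pass the limma test over 16 arrays after Benjamini-Hochberg adjustment over all probes (adjusted p = 0.112, unadjusted 0.0394). Of all probes, 464 (13.5%) passed that test, 8.23% higher and 5.26% lower in pete1, and 1281 had an unadjusted p under 0.05. Over averages of consecutive arrays the interval widened to -0.37 to 1.58 (limma adjusted p = 0.461), where 0.262% of probes passed. The 4 averages were 1.20, 1.85, 1.81 and 1.47 in pete1, against 0.98, 1.34, 1.47 and 0.12 in WT. Without WT replicates 7 and 8 the change over averages was 0.32 (95% confidence interval -0.67 to 1.32).

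CHLM gave a weaker signal and leaned the other way. Its deposited intensity was 0.087 at the lowest, 0.187 at the median and 0.322 at the highest over the pete1 arrays, against 0.190, 0.314 and 0.612 over the WT arrays. Here 4 of 8 pete1 arrays lay below the lowest WT array and 3 of 8 WT arrays above the highest pete1 array. CHLM was also measured above the floor on all 16 arrays.

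The normalized CHLM signal (log2) in pete1 was -1.63 and -1.38 on replicates 1 and 2, -1.74 and -2.72 on replicates 3 and 4, -2.68 and -2.74 on replicates 5 and 6, and -2.04 and -2.56 on replicates 7 and 8. In WT it was -2.54 and -1.68 on replicates 1 and 2, -1.80 and -1.35 on replicates 3 and 4, -1.85 and -1.92 on replicates 5 and 6, and -1.07 and -1.47 on replicates 7 and 8. Set side by side by number, pete1 was above WT at replicates 1, 2 and 3, by 0.91, 0.30 and 0.063 (log2). It was below WT at the other 5 numbers. No label ties arrays of the same number, so these are not matched comparisons. Replicates 1 and 2 of pete1 were the highest of their group, and WT replicate 1 was the lowest of its own.

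CHLM averaged -2.19 ± 0.56 in pete1 and -1.71 ± 0.44 in WT (normalized log2, SD, n = 8 arrays each). The change was -0.48 (95% confidence interval -1.08 to 0.13), or 0.719 times the WT level (0.473 to 1.09), and did not pass the limma test (adjusted p = 0.247). Over averages of consecutive arrays the interval was -1.43 to 0.48 (limma adjusted p = 0.567). The averages were -1.51, -2.23, -2.71 and -2.30 in pete1, against -2.11, -1.58, -1.88 and -1.27 in WT, with 3 of 4 pete1 averages below the lowest WT average. Neither difference passed the test after adjustment over all probes, and over averages both intervals include 0. Over 16 arrays the intervals leave room for a change of 1 on the log2 scale upward for CHLP and downward for CHLM.

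**Figure D1:**
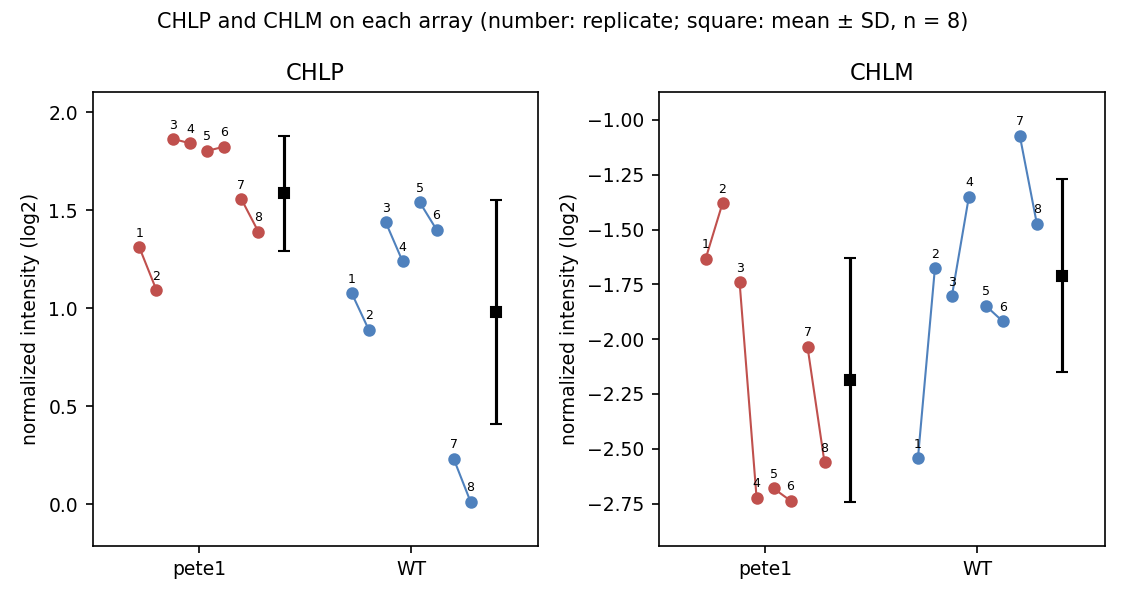
Normalized intensity (log2) of CHLP (left) and CHLM (right) on each array of pete1 and WT. Points carry the replicate number, lines join arrays with consecutive numbers, and squares with bars are mean ± SD (n = 8). CHLP is lowest on WT replicates 7 and 8 (0.23 and 0.012), and CHLM is highest on WT replicate 7 (-1.07).

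The size of both changes depends on how arrays are put on one scale. The median probe itself shifted by 0.22 (log2) with quantile normalization and by -0.56 on the deposited scale, each with a floor for each array. With quantile normalization and 1 floor for all arrays it shifted by 0.0078, so the shift of 0.22 depends on the floors. Relative to the median probe, the change of CHLP was 0.38 with quantile normalization, 0.60 with 1 floor for all arrays and 0.95 on the deposited scale. Relative to the median probe, that of CHLM was -0.70, -0.48 and -0.34. The direction of both genes was the same in these settings. Other percentile floors, filters of dim probes, the Wilcoxon test, blocks and averaging of consecutive arrays kept the unadjusted changes at 0.61 and -0.48. Their agreement in direction was therefore fixed in advance.

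The percentile of a probe in its own array needs no scaling between arrays. CHLP lay at percentile 95.6 at the lowest, 96.8 at the median and 97.1 at the highest in pete1, against 91.1, 95.7 and 96.6 in WT. It was between the 100th and the 153rd brightest of the probes on pete1 arrays, and between the 118th and the 306th on WT arrays. The mean was 96.6 ± 0.57 in pete1 and 94.9 ± 2.05 in WT (percentile, SD, n = 8 arrays each), a difference of 1.69 points.

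For this difference the two-sided exact permutation p over 16 arrays was 0.0166, and 30.4% of all probes had an unadjusted p under 0.05 in the same test. Adjusted over all probes the exact permutation p was 0.0769, so CHLP was not among the 13.5% of probes called. Over 4 averages per group the exact permutation p was 0.143, where the smallest possible is 0.0286. WT replicates 7 and 8 (percentiles 92.4 and 91.1) were below all other arrays, and 5 of 8 pete1 arrays were above every WT array.

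CHLM lay at percentile 50.2 at the lowest, 59.5 at the median and 76.6 at the highest in pete1, against 54.3, 70.6 and 80.9 in WT. The mean was 61.3 ± 11.0 in pete1 and 70.6 ± 8.01 in WT (percentile, SD, n = 8 arrays each), a difference of -9.24 points. The two-sided exact permutation p was 0.0774 over 16 arrays, 0.226 adjusted over all probes, and 0.171 over averages. With probes at 0 left out of the ranking the difference was -12.6 points and the unadjusted exact permutation p 0.0361. No adjusted p was computed for that ranking. On 4 of 8 pete1 arrays, replicates 4, 5, 6 and 8, CHLM lay below percentile 54.3, the lowest value of the WT arrays, which was that of WT replicate 1.

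**Figure D2:**
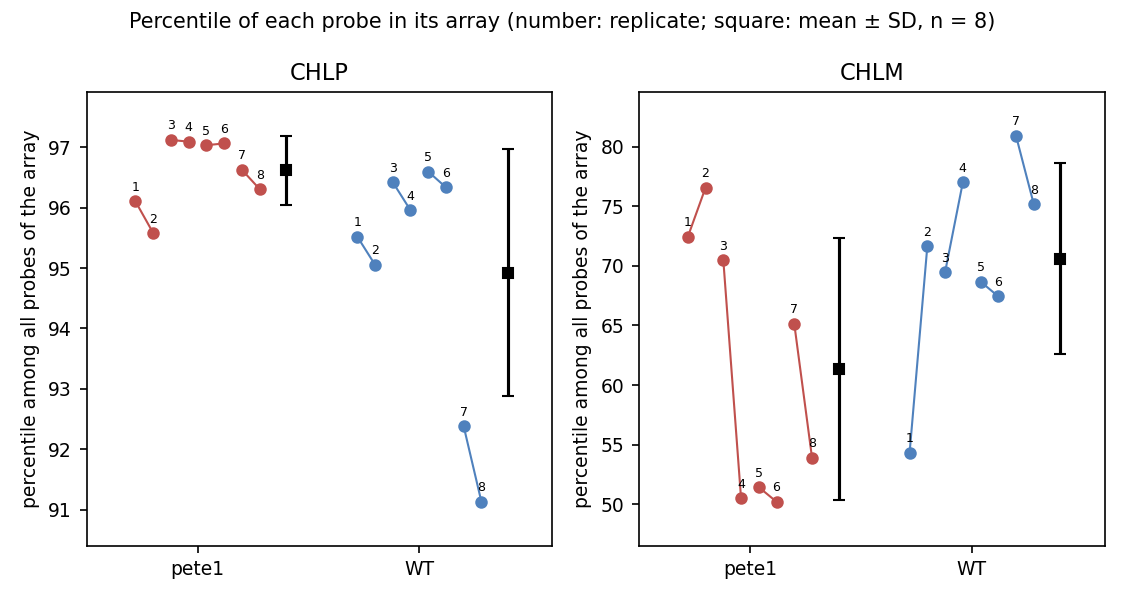
Percentile of the CHLP probe (left) and the CHLM probe (right) among the 3439 probes of each array, for pete1 and WT. Points carry the replicate number, lines join consecutive arrays, and squares with bars are mean ± SD (n = 8). CHLP stays between 95.6 and 97.1 in pete1, and CHLM spans 50.2 to 76.6 in pete1 and 54.3 to 80.9 in WT.

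The spread of the members among arrays was smaller than that of most probes of like brightness. The pooled within-group SD of CHLP was 0.45 on the log2 scale, against a median of 0.65 for the 200 probes nearest in mean level, and 14.5% of these had a smaller SD. For CHLM it was 0.501 against 0.701, and 20.0% were smaller. Consecutive arrays differed on average by 0.15 for CHLP and 0.45 for CHLM (log2), against medians of 0.15 for the 200 probes nearest to CHLP and 0.36 for those nearest to CHLM. For CHLP the SD over averages (0.31 in pete1, 0.61 in WT, n = 4 each) was thus larger than the difference within them. For CHLM consecutive arrays could lie far apart, as pete1 replicates 3 and 4 did (-1.74 and -2.72).

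Both probes lie on the same arrays, so scaling by a constant cancels in the difference between them. Quantile normalization is not such a scaling and does not cancel. CHLP minus CHLM (normalized log2) was 2.47 at the lowest, 3.78 at the median and 4.56 at the highest in pete1, against 1.31, 2.92 and 3.62 in WT. It was above the highest WT array on 4 of 8 pete1 arrays and below the lowest pete1 array on 2 of 8 WT arrays. The mean was 3.77 ± 0.78 in pete1 and 2.69 ± 0.88 in WT (SD, n = 8 arrays each). The difference of 1.08 means that the ratio of the 2 normalized signals was 2.12 times as high in pete1. It was 1.29 on the deposited scale and 0.65 over averages without WT replicates 7 and 8. This quantity was formed from members chosen with their changes known and has no test. It does not tell which of the genes changed, and it is no comparison of their transcript levels.

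Over the 16 arrays the signals of CHLP and CHLM ran against each other (Pearson r = -0.636; -0.514 for deviations from the group means). This is a description over arrays that share a scaling and fall into consecutive sets. The WT arrays with the lowest CHLP, replicates 7 and 8, were among the 3 with the highest CHLM, and the pete1 arrays with the lowest CHLP, replicates 1 and 2, had the highest CHLM of their group.

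**Figure D3:**
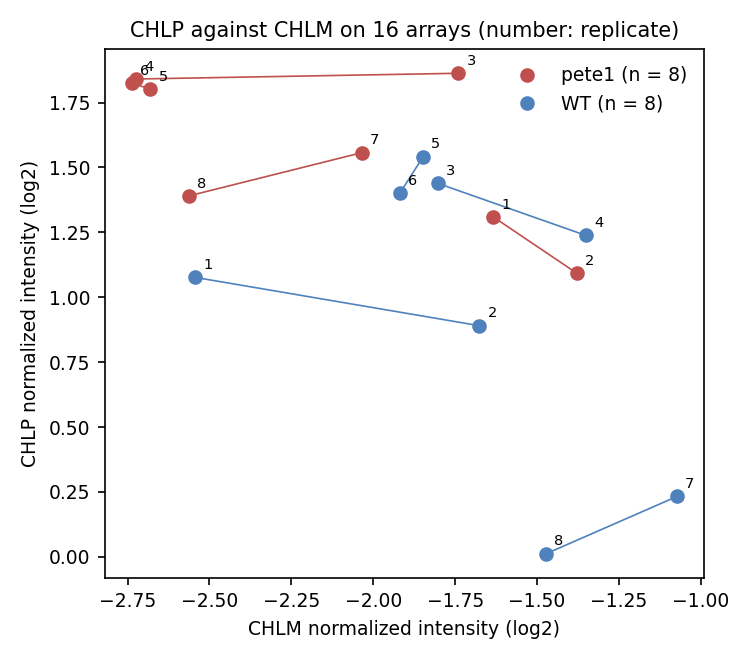
CHLP against CHLM, both as normalized intensity (log2), on 8 pete1 and 8 WT arrays. Points carry the replicate number and lines join consecutive arrays. WT replicates 7 and 8 lie at the bottom right (CHLP 0.23 and 0.012), and pete1 replicates 4, 5 and 6 at the top left (CHLM -2.72, -2.68 and -2.74).

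The transcripts most like CHLP over the 16 arrays, among 440 other probes that name 1 gene and were at the floor on at most 2 arrays, were those of AT4G27510 (r = 0.918), AT1G13990 (r = 0.914) and AT4G04370 (r = 0.886). For deviations from the group means the correlations were 0.873, 0.886 and 0.829. Their own changes in pete1 were 1.16, 1.11 and 1.14 on the log2 scale. The probe of AT4G04370 is number 2345, close to CHLP at 2360, while those of AT4G27510 (59) and AT1G13990 (2651) lie farther away. Whether nearness in the numbering plays a part was not tested. The difference between the groups enters the correlation that chose these genes, so a change in the direction of CHLP is partly built in and carries no test. Between any pair of these probes the median correlation was -0.0025 and the 99th percentile 0.768.

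CHLM had no such close companion. Its nearest were AT1G32190 (r = 0.682), AT5G15280 (r = 0.669) and AT1G63720 (r = 0.651), all under that 99th percentile. Their changes in pete1 were -1.13, -0.75 and -1.66 on the log2 scale, again a description of genes chosen partly by that difference. For deviations from the group means the correlations with CHLM were 0.589, 0.618 and 0.543.

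The changes of both members were also set beside those of probes at fixed distances in the probe numbering. Among the 20 measured probes whose numbers lie 12 to 144 away from CHLP in steps of 12, the median change was 0.62 (log2). This was close to the change of CHLP itself. Of these 20 probes 14 were higher in pete1, as were 59.5% of all probes, whose median change was 0.22. Among the 24 probes next to CHLP the median change was 0.025. For CHLM the 22 probes at steps of 12 had a median change of 0.47, opposite in sign to CHLM, and the 24 next to it had one of -0.25.

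The median deviation of the probes at steps of 12 was subtracted on each array, a correction chosen after seeing the data. The change of CHLP was then 0.042 (95% confidence interval -0.55 to 0.64, limma adjusted p = 0.941), while the median probe changed by 0.045. Relative to the median probe CHLP changed by -0.0024. The interval for CHLP was wide and still held its uncorrected change of 0.61. With the same correction CHLM fell by 0.84 on the log2 scale (95% confidence interval -1.26 to -0.43; limma adjusted p = 0.0112), where 14.1% of probes passed. Over averages of consecutive arrays this change of CHLM kept its size and did not pass (interval -1.38 to -0.30; limma adjusted p = 0.160). With a running median over 25 neighbouring probes, CHLP rose by 0.66 (adjusted p = 0.0371) and CHLM had a change of -0.28 (adjusted p = 0.285), and 18.6% of probes passed. With 51 neighbours, a window chosen after seeing the data, the change of CHLP was 0.64 (limma adjusted p = 0.0530). In that setting CHLM fell by 0.70 (limma adjusted p = 0.0376), and 18.6% of probes passed. With 13 neighbours, also chosen after seeing the data, neither passed (0.14 and -0.37, limma adjusted p = 0.653 and 0.118). None of these corrections gave a call for either gene over averages of consecutive arrays. What the numbering stands for on the array is not given in the sources used here, and its part in the changes was not tested further.

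**Figure D4:**
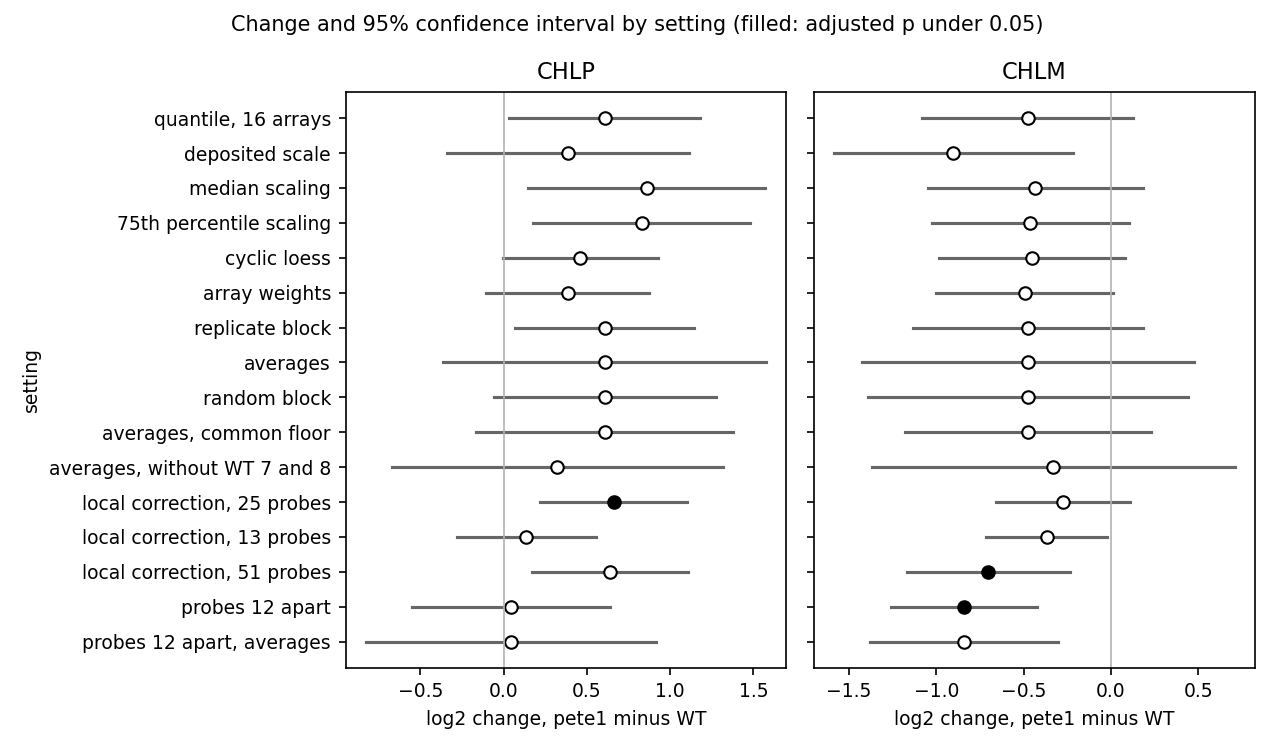
Change of CHLP (left) and CHLM (right) on the log2 scale, pete1 minus WT, with its 95% confidence interval under 16 settings. Filled points passed the limma test (adjusted p under 0.05). The change of CHLP ranges from 0.042 to 0.86 and that of CHLM from -0.90 to -0.28 in the settings shown.

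The rest of the tetrapyrrole and related pathways was sparsely covered. Of 109 genes in 9 lists, 6 including both members were measured on a probe of their own, in 5 lists, and 7 more lie on probes that name several genes and are not reported. Of these 6 genes 0 rose and 0 fell by the limma test over 16 arrays, against 13.5% of all probes called, and 0 passed over averages, against 0.262%. CHLP, HEMA3 and VTE6, 3 of the 6, had an unadjusted limma p under 0.05 (0.0394, 0.0086 and 0.0355), as did 37.2% of all probes. The median change of all 6 genes, both members included, was 0.35 on the log2 scale. For all probes it was 0.22, both values with a floor for each array. With 1 floor for all arrays the median of all probes was 0.0078. Of the 6 genes only Z-ISO then had another change (-0.029 in place of 0.091). In the magnesium branch CHLP and CHLM were the measured 2 of 15 genes.

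At the entry to the pathway, HEMA3, an isoform of glutamyl-tRNA reductase, averaged -1.02 ± 0.66 in pete1 and -2.05 ± 0.71 in WT (normalized log2, SD, n = 8 arrays each). Its change of 1.03 had a 95% confidence interval of 0.29 to 1.76 (limma adjusted p = 0.0554 over 16 arrays and 0.316 over averages). SIRB, which inserts iron in the last step of sirohaem synthesis, a side branch of the same pathway, had a change of -0.12 (interval -0.76 to 0.51; adjusted p = 0.809).

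VTE6, a kinase that returns phytyl phosphate from chlorophyll breakdown to tocopherol synthesis, draws on the phytyl group that CHLP makes. It averaged -0.51 ± 0.21 in pete1 and -1.48 ± 1.25 in WT (normalized log2, SD, n = 8 arrays each), a change of 0.97 (interval 0.073 to 1.87; limma adjusted p = 0.103 over 16 arrays and 0.351 over averages). Z-ISO, an isomerase of the carotenoid pathway, which shares its geranylgeranyl precursor with the chlorophyll tail, had a change of 0.091 (interval -0.99 to 1.17; adjusted p = 0.917), which was -0.029 with 1 floor for all arrays.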

How the data were processed

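The authors' deposited table holds 1 intensity per probe and array, on a linear scale from 0 to 100; scanner, background correction, scaling and genome build are not stated per the labels. Groups and replicate numbers came from the sample titles. Platform annotation named the probes (692 with 1 gene, 690 found in the RefSeq TAIR10.1 gene table, used for names alone).

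Intensities were quantile-normalized (limma 3.58.1, R 4.3.3), floored at the 5th percentile of each array's positive values, and log2 was taken. The floors of the arrays ran from -7.06 to -4.10 (log2). All 3439 probes were compared with lmFit and eBayes over 16 arrays, two-sided, with Benjamini-Hochberg adjustment over all probes at 0.05. Percentiles in the array were compared with an exact permutation test. In the corrections by probe number, deviations from a probe's mean over 16 arrays were used. Alternatives were other scalings, floors, filters, tests, blocks, arrays left out and averages of consecutive arrays. The fits were tested on simulated data with independent arrays, so that test did not cover the shared deviations of consecutive arrays. The number of arrays limits the precision. No 2 arrays held identical values.

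The members, the gene lists, the likeness rule (3 genes of highest Pearson r) and the alternatives were chosen with earlier results of these data known. The named genes are the members, the measured genes of the lists and the genes most like each member.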

Additional observations from a re-analysis of the deposited data

How the results depend on the processing

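Over 49 other settings neither sign reversed, but many could not move the change. CHLP ranged from 0.042 to 0.86 and passed in 1 (0.66, running median over 25 probes), as did 18.6% of probes. CHLM ranged from -0.90 to -0.28 and passed in 2, both chosen after seeing the data. These were -0.70 with 51 probes (18.6% of probes passed) and -0.84 with probes 12 numbers apart (14.1%). At unadjusted p under 0.05 (30.4% of probes in the main ranking), the CHLP percentile difference of 1.69 did not pass over averages. That of CHLM did with probes at 0 left out (-12.6). It also did without pete1 replicate 1, pete1 replicate 2 or WT replicate 1 (-10.8, -11.4, -11.6). It ran from -11.6 to -7.65 with 1 array left out. The 464 calls (283 higher, 181 lower) became 775 with the 1st percentile floor, 762 with array weights, 875 with the exact Wilcoxon test and 62 with consecutive arrays as a random block (16 arrays, estimated correlation 0.718). Over averages they became 9, or 35 with the common floor (the highest of the array floors), 7 on the deposited scale, 20 with median scaling, 55, 56 and 51 with the running median over 25, 13 and 51 probes and 16 with probes 12 numbers apart. Leaving out 1 of the 16 arrays gave 312 to 878 calls, with 878 without pete1 replicate 5. Leaving out 1 of the 8 averages gave 5 to 22 in place of 9, with 5 without pete1 replicates 3 and 4, 19 without WT replicates 1 and 2 and 22 without WT replicates 7 and 8. The deposited scale gave 269 calls (27 higher, 242 lower), median scaling 168 higher against 186 lower and the 75th percentile 169 against 199. The CHLP minus CHLM difference of 1.08 ran from 0.65 to 1.44 over 35 settings. The cause of these differences was not tested.

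No label ties a pete1 array to the WT array of the same number. The deviations of such arrays correlated at 0.011 to 0.408 (above 0.1 for 7 of 8 numbers), and 14 of 16 arrays correlated best with their own number. The samples are also listed with WT and pete1 alternating by number. What arrays of the same number share is not stated. The main comparison did not treat them as pairs, and averages of consecutive arrays were not fitted with the number as a block. A fit with this number as a block called 494 probes, and CHLP (0.61, limma adjusted p = 0.103) and CHLM (-0.48, adjusted p = 0.256) were not. Between arrays of the same number CHLP was higher in pete1 at 8 of 8 numbers (by 0.20 to 1.38, log2), as were 6.89% of all probes, while CHLM was lower at 5 of 8 (-1.37 to 0.91).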
